A study of Mus musculus with 6 samples.

Results

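The genes described here are 29 genes of cholesterol synthesis and of its control by sterol regulatory element-binding proteins (SREBPs), measured by RNA-seq in tumor-associated macrophages (TAMs). They were chosen by name: the 18 genes for enzymes of the path from acetyl-CoA to cholesterol, 5 genes for SREBPs and the proteins that hold or escort them, 3 genes for sterol carriage, lipoprotein receptor turnover and sterol esterification, and 3 fatty acid desaturases. Each symbol was paired with 1 Ensembl gene, and all 29 had 10 or more counts in at least 3 libraries, the filter that left 14488 of the 55421 genes in the count table for testing. The TAMs came from tumors 15 days after implantation, which the labels name M17 and the study's methods MC17-51 fibrosarcoma. The control mice, Pdcd1f/f, carried Pdcd1 alleles with loxP sites and no Cre, and the Pdcd1f/fLysMcre mice carried the same alleles with Cre under the lysozyme (LysM) promoter, which is active in myeloid cells. Pdcd1 codes for the inhibitory receptor PD-1. Each genotype had 3 libraries. Age and strain are not given in the labels, and the study's methods give an age of 8 to 12 weeks at implantation and equal numbers of males and females. The question was whether the pathway moved with Hmgcs1, which codes for the cytosolic enzyme that makes HMG-CoA at the entry of the mevalonate pathway, and whether the answer was the same after a correction for GC content.

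Cholesterol is built from acetyl-CoA through mevalonate, isoprenoid diphosphates, squalene and lanosterol. When membrane sterol is scarce, the escort SCAP carries SREBPs from the endoplasmic reticulum to the Golgi, where they are cut and released to switch on the genes of the pathway, and when sterol is plentiful INSIG proteins hold SCAP and SREBP back. Macrophages take up lipid from their surroundings, and oxysterols made from that cholesterol both hold SREBPs back and activate the LXR receptors, which in turn induce Srebf1, Mylip and efflux transporters.

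Library totals ranged from 41833823 to 51417209 counts, and the sources name no culture, batch or number of mice per library, so the p-values measure the spread between these libraries. Counts of Pdcd1 were few and did not separate the genotypes, with 10 to 15 per library in Pdcd1f/f and 7 to 16 in Pdcd1f/fLysMcre. Lyz2, the gene whose promoter drives the Cre, had 207974 to 225226 normalized counts in Pdcd1f/f and 405 to 465 in Pdcd1f/fLysMcre. The controls carried no Cre, so the presence of Cre, the lower Lyz2 and the targeting of Pdcd1 cannot be told apart. The macrophage list (Cd68, Csf1r, Adgre1, Itgam, Ptprc, Mertk and Fcgr1) was present throughout. Its summed level was 4533 to 4807 CPM (counts scaled to the library total) in Pdcd1f/f and 3996 to 4076 in Pdcd1f/fLysMcre. By the edgeR test 3 of its 7 genes (Adgre1, Csf1r and Mertk) were lower in Pdcd1f/fLysMcre (42.9%, beside 3.01% of all genes). With the offsets for GC content and length described below, Fcgr1 was lower as well, which made 4 of 7 (57.1%, beside 9.0% of all genes). The neutrophil list summed to 34.7 to 45.2 CPM and 43.3 to 46.2 CPM, with Ly6g, Mpo, Elane and Camp at 10 counts or fewer in every library, and the T and NK cell list to 12.7 to 14.0 and 11.0 to 13.0 CPM. Of the 2 neutrophil genes tested, 0 passed without offsets, and S100a8 was higher with them (edgeR adjusted p = 0.0146). The B cell list stayed at or under 0.398 CPM in every library, and the dendritic cell list summed to 4.73 to 6.36 and 5.95 to 7.64 CPM. The fibroblast list summed to 63.9 to 70.0 and 60.2 to 67.6 CPM, with Col1a2 lower by the test. Without offsets, the log2 fold change was -0.78 for Col1a1 (edgeR adjusted p = 0.146), -0.070 for Col3a1, 0.033 for Dcn and 0.046 for Pdgfra. The endothelial list summed to 39.8 to 42.5 and 31.9 to 34.4 CPM, with Pecam1 lower by the test. Its log2 fold change was -0.62, beside -0.0092 for Cdh5 and 0.017 for Kdr. In bulk RNA, fewer cells of a type and less RNA per cell cannot be told apart. The summed level of 4 Y-linked genes was 1545 to 1914 normalized counts in Pdcd1f/f and 6267 to 7233 in Pdcd1f/fLysMcre, so the share of male RNA moved with genotype, and sex and genotype cannot be told apart. The part of these differences in the results that follow was not tested.

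The promoter of Hmgcs1 is shown because it was the only member promoter found here with the classical sterol regulatory element, and those of Pmvk and Mylip because these genes had lower counts in Pdcd1f/fLysMcre. The RefSeq promoter table (GRCm38.p6) held an entry, from 250 bases before to 50 after the start, for 23 of the 29 genes. Each line gives the 250 bases before the annotated start, 5′ to 3′ in the direction of the gene, at chr13:119690101-119690350 for Hmgcs1, chr3:89454291-89454540 for Pmvk and chr13:45389492-45389741 for Mylip, all on the plus strand. Capitals mark the sterol regulatory element TCACNCCAC and the NF-Y box CCAAT, read on both strands (ATTGG is CCAAT on the other strand).
Hmgcs1: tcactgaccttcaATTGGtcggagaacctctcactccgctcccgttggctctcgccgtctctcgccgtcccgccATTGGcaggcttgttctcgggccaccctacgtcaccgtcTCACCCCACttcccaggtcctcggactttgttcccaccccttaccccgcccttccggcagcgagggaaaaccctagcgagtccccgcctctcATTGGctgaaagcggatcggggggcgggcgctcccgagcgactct
Pmvk: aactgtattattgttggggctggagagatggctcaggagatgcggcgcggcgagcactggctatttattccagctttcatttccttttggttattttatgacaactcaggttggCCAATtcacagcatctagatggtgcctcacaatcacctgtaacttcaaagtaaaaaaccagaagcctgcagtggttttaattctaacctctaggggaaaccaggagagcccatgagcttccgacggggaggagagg
Mylip: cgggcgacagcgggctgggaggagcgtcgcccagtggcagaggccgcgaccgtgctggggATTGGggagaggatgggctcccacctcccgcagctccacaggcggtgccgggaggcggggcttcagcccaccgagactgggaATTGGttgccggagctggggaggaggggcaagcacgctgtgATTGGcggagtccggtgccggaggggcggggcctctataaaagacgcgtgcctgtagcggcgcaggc
The element TCACNCCAC was present in the promoter of 1 of the 23 genes, Hmgcs1, where it began 137 bases before the start, and for 1.44% of the 27025 genes in the table. The NF-Y box CCAAT, the site of a factor that works beside SREBPs, was present for 20 of the 23 genes and for 41.1% of all genes in the table. The E-box-like sequence TCACGTGA, which SREBP1 can also bind, was present for 0 of the 23 genes and for 1.12% of genes. These letters are a description of the window and mark no tested binding site.

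Most of the genes did not share the direction of Hmgcs1. In the comparison of genotypes by edgeR's two-sided quasi-likelihood test with Benjamini-Hochberg adjustment over all 14488 genes, 1 of the 29 genes was higher in Pdcd1f/fLysMcre (Scd2) and 4 were lower (Fads1, Mylip, Dhcr7 and Pmvk) at an adjusted p under 0.05. Among all genes tested, 2.42% were higher and 3.01% were lower. The median log2 fold change of the 29 genes was -0.15, beside 0.00 over all genes, and 21 of the 29 estimates were negative and 8 were positive. The libraries of the genotypes did not overlap for 14 members, 3 of them higher (Hmgcs1, Sqle and Scd2) and 11 lower. Of all genes tested, 14.7% did not overlap with the higher values in Pdcd1f/fLysMcre and 12.7% with the lower ones.

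**Figure D1:**
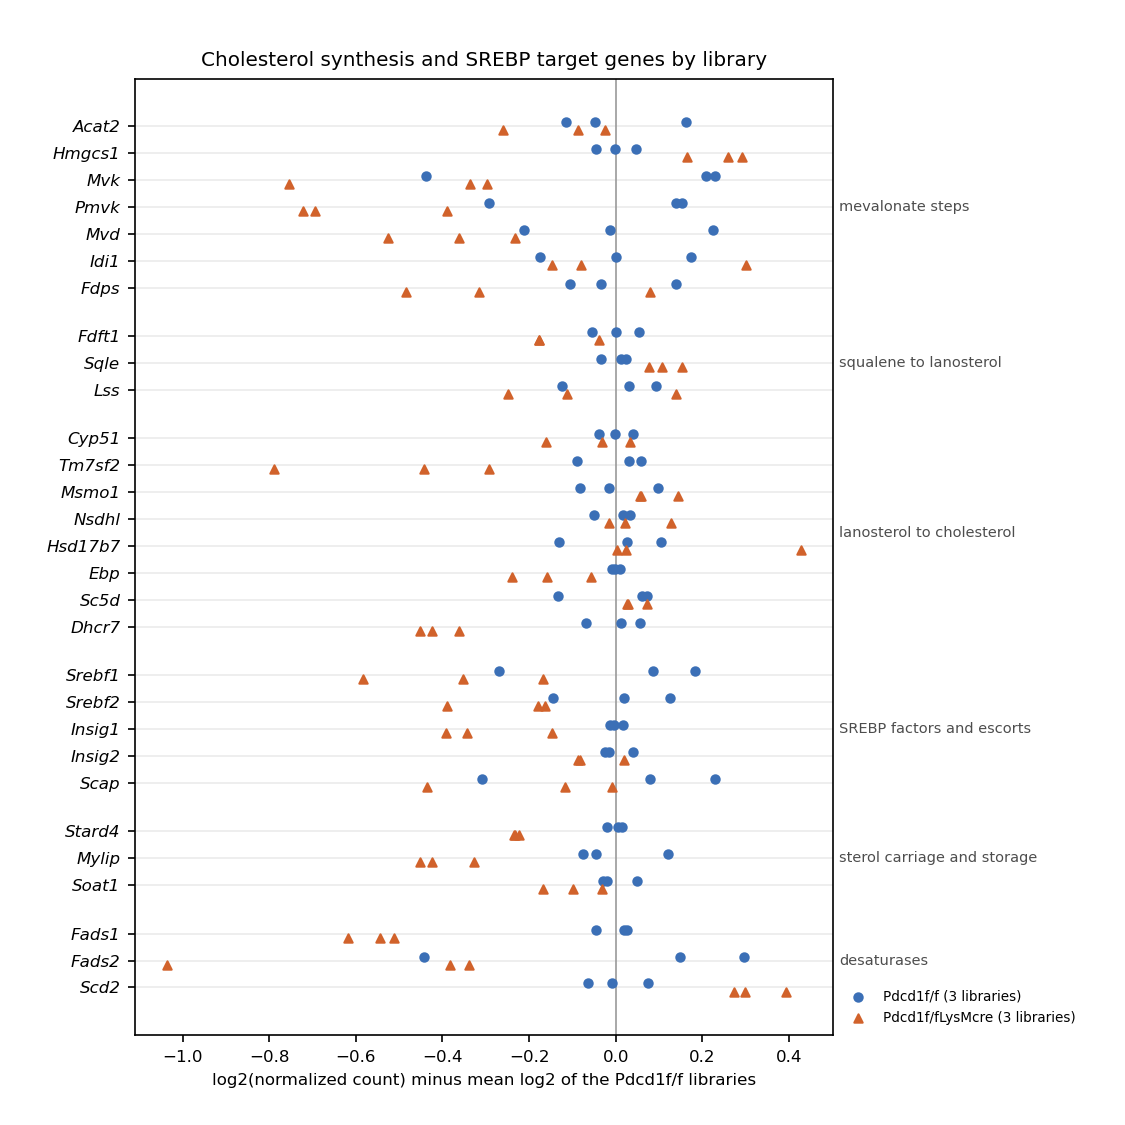
Each row is 1 of the 29 genes, grouped by role, and each point is 1 library: log2 of the normalized count minus the mean log2 of the 3 Pdcd1f/f libraries (horizontal axis), with circles for Pdcd1f/f and triangles for Pdcd1f/fLysMcre. The triangles lie to the right of all circles for Hmgcs1, Sqle and Scd2 and to the left of all circles for 11 genes, among them Fads1, Mylip, Dhcr7 and Pmvk.

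Hmgcs1 had 2366, 2218 and 2285 normalized counts (counts divided by a size factor per library) in Pdcd1f/f and 2565, 2799 and 2740 in Pdcd1f/fLysMcre. Every Pdcd1f/fLysMcre library was above every Pdcd1f/f library. The log2 fold change was 0.24 (SE 0.07, 95% interval 0.09 to 0.39), a difference of 18.1%, with an edgeR adjusted p of 0.0649, which did not pass the threshold. By DESeq2 on the same counts, Hmgcs1 passed (log2 fold change 0.24, DESeq2 adjusted p = 0.0234), and 2 members were then higher and 7 lower, while DESeq2 called 5.23% of all genes higher and 5.82% lower. The gene lies at chr13:119690379-119708260 on the plus strand (GRCm38), and its longest transcript has a GC content of 43.1%, under the median of 49.2% over the genes tested.

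Of the other 6 genes of the mevalonate steps, 5 had negative estimates and Idi1 an estimate near 0. Pmvk, which codes for the kinase that adds the second phosphate to mevalonate, fell: its normalized counts were 781, 1054 and 1064 in Pdcd1f/f and 591, 580 and 730 in Pdcd1f/fLysMcre. The groups did not overlap, although Pdcd1f/f replicate 1 lay close to the Pdcd1f/fLysMcre libraries. The log2 fold change was -0.61 (SE 0.14, edgeR adjusted p = 0.0301), the most negative of the 29 estimates. Mvk, the mevalonate kinase that acts before it, had 301, 478 and 472 normalized counts in Pdcd1f/f and 332, 242 and 324 in Pdcd1f/fLysMcre, so the groups overlapped through Pdcd1f/f replicate 1, and its log2 fold change of -0.47 (SE 0.19) did not pass the test (adjusted p = 0.156). Mvd, which decarboxylates the diphosphate to isopentenyl diphosphate, had 364, 417 and 492 normalized counts against 328, 292 and 358. Its groups did not overlap, and its log2 fold change of -0.38 (SE 0.13) had an adjusted p of 0.122.

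The remaining mevalonate genes had overlapping groups. Idi1, the isomerase of isopentenyl diphosphate, had 216, 170 and 192 normalized counts in Pdcd1f/f and 181, 236 and 173 in Pdcd1f/fLysMcre, with a log2 fold change of 0.03 (95% interval -0.32 to 0.38). Fdps, which joins the isoprenoid units to farnesyl diphosphate, had 210, 248 and 220 normalized counts against 161, 181 and 238, with a log2 fold change of -0.22 (95% interval -0.58 to 0.13). Acat2, the cytosolic thiolase that supplies acetoacetyl-CoA to Hmgcs1, had 332, 274 and 287 normalized counts against 291, 279 and 248, with a log2 fold change of -0.13 (95% interval -0.39 to 0.14). With each library left out in turn, the log2 fold change ran from -0.40 to -0.11 for Fdps and from -0.18 to -0.04 for Acat2. The related genes Acat3 and Idi2 had 3 to 12 and 0 to 1 counts per library. Thus 1 of the 7 mevalonate genes passed the edgeR test (14.3%, beside 5.43% of all genes), 4 had an unadjusted p under 0.05 (57.1%, beside 24.2%), 1 of them higher and 3 lower, and Hmgcs1 and Pmvk passed by DESeq2 (28.6%, beside 11.0%). The median log2 fold change of the 7 was -0.22.

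Of the 3 genes between squalene and lanosterol, 0 passed the edgeR test, 0 had an unadjusted p under 0.05, and 0 passed by DESeq2 or limma. Over all genes, 24.2% had an unadjusted p under 0.05, 11.0% passed by DESeq2 and 4.57% by limma. Sqle, the squalene epoxidase and a rate-controlling step of the pathway, had 862, 898 and 890 normalized counts in Pdcd1f/f and 982, 931 and 952 in Pdcd1f/fLysMcre. Its groups did not overlap, although they did with the GC and length offsets, and its log2 fold change was 0.11 (SE 0.07, adjusted p = 0.378). Fdft1, the squalene synthase, had 463, 429 and 446 normalized counts against 394, 394 and 434 (log2 fold change -0.13, adjusted p = 0.433). It shares 774 bases of exon with Ctsb on the opposite strand, a gene with 288579 to 326672 counts per library, and whether reads were counted by strand is not given in the sources used here. Lss, the lanosterol synthase, had 395, 439 and 459 normalized counts against 474, 362 and 398, so the Pdcd1f/f libraries lay within the range of the Pdcd1f/fLysMcre libraries (log2 fold change -0.06, adjusted p = 0.786).

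From lanosterol to cholesterol, 1 of 8 genes passed the edgeR test (12.5%, beside 5.43% of all genes), and 2 of 8, Dhcr7 and Tm7sf2, had an unadjusted p under 0.05 (beside 24.2% of all genes) and passed by DESeq2 (beside 11.0%). Dhcr7, the reductase of the last step from 7-dehydrocholesterol to cholesterol, fell from 776, 820 and 847 normalized counts in Pdcd1f/f to 606, 595 and 633 in Pdcd1f/fLysMcre. The lowest Pdcd1f/f library was well above the highest Pdcd1f/fLysMcre library. The log2 fold change was -0.41 (SE 0.08, edgeR adjusted p = 0.0184). Tm7sf2, a sterol C14 reductase, had 179, 194 and 198 normalized counts against 110, 140 and 155. Its groups did not overlap, and its log2 fold change of -0.49 (SE 0.15) had an adjusted p of 0.0881. It shares 532 bases of exon with Vps51 on the same strand, which had 1170 to 1613 counts per library.

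The other 6 genes of this stretch had log2 fold changes between -0.15 and 0.16. Ebp, the sterol isomerase, had 2369, 2391 and 2360 normalized counts in Pdcd1f/f and 2280, 2010 and 2128 in Pdcd1f/fLysMcre, with no overlap and an adjusted p of 0.225 (log2 fold change -0.15). Ebp and Nsdhl, a sterol dehydrogenase that takes part in removing the C4 methyl groups, lie on the X chromosome, and Nsdhl had 1018, 1007 and 962 normalized counts against 1009, 1087 and 984 (log2 fold change 0.05). Msmo1, the C4 methyl oxidase, had 2595, 2400 and 2292 normalized counts against 2521, 2679 and 2525 (log2 fold change 0.09, 95% interval -0.07 to 0.24). Hsd17b7, the ketoreductase that follows, had 478, 452 and 405 normalized counts against 445, 597 and 451, so its log2 fold change of 0.16 was carried by Pdcd1f/fLysMcre replicate 2. Cyp51, the lanosterol demethylase, had 1364, 1292 and 1326 normalized counts against 1186, 1358 and 1298 (log2 fold change -0.05), and Sc5d, the sterol C5 desaturase, had 633, 639 and 554 against 619, 639 and 619 (log2 fold change 0.04). Across the 18 enzymes, 0 were higher and 2 were lower by the edgeR test, 1 was higher and 5 were lower at an unadjusted p under 0.05, and 1 was higher and 3 were lower by DESeq2. Of all genes, 2.42% were higher and 3.01% lower by edgeR, 12.3% and 11.9% at an unadjusted p under 0.05, and 5.23% and 5.82% by DESeq2. The median log2 fold change of the enzymes was -0.09.

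**Figure D2:**
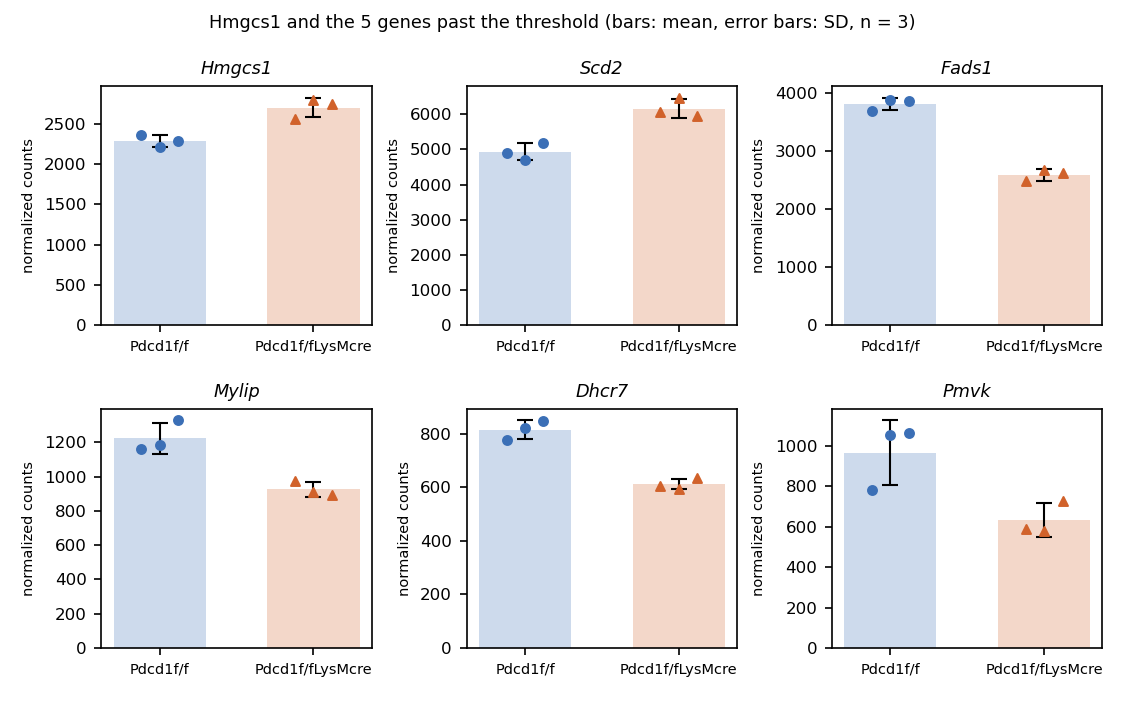
Normalized counts of Hmgcs1 and of the 5 genes past the threshold, with 1 point per library, bars at the mean and error bars of 1 SD (n = 3 libraries per genotype). Hmgcs1 and Scd2 were higher in all 3 Pdcd1f/fLysMcre libraries, and Fads1, Mylip, Dhcr7 and Pmvk were lower in all 3, with Pmvk showing the widest spread relative to its mean in Pdcd1f/f (966 ± 160).

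Of the 5 genes for SREBPs and their partners, 0 passed the edgeR test, 3 had an unadjusted p under 0.05 (Insig1, Srebf1 and Srebf2, 60.0% beside 24.2% of all genes), 2 passed by DESeq2 (Insig1 and Srebf1, 40.0% beside 11.0%) and 0 by limma. All 5 estimates were negative. Insig1, a direct SREBP target that retains SCAP, had 3274, 3324 and 3253 normalized counts in Pdcd1f/f and 2502, 2966 and 2589 in Pdcd1f/fLysMcre. The Pdcd1f/f libraries had a mean of 3283 ± 36.5 (SD, n = 3), and every Pdcd1f/fLysMcre library was below them. The log2 fold change was -0.29 (SE 0.08, edgeR adjusted p = 0.0539), on the other side of 0 from Hmgcs1. Srebf1 had 2877, 3685 and 3941 normalized counts against 2717, 2316 and 3090, with overlap through Pdcd1f/f replicate 1 (log2 fold change -0.37, SE 0.13, adjusted p = 0.116). Srebf2, which codes for the SREBP most tied to cholesterol synthesis, had 4508, 5048 and 5440 normalized counts against 4400, 3803 and 4448 without overlap (log2 fold change -0.24, SE 0.09, adjusted p = 0.126). Scap had 1366, 1785 and 1983 normalized counts against 1559, 1250 and 1681 (log2 fold change -0.19), and Insig2 had 1007, 969 and 962 against 924, 991 and 922 (log2 fold change -0.05). In the 3 GC-rich genes Srebf1, Srebf2 and Scap, the same libraries, Pdcd1f/f replicate 1 and Pdcd1f/fLysMcre replicate 2, were the lowest of their genotype.

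Of the 3 genes for sterol carriage and storage, 1 (Mylip) passed the edgeR test (33.3%, beside 5.43% of all genes). At an unadjusted p under 0.05, 2 were lower (66.7%, beside 24.2%), and 1 was lower by DESeq2 (33.3%, beside 11.0%). The libraries of the genotypes did not overlap and were lower for all 3, beside 12.7% of all genes. Mylip codes for the ubiquitin ligase, induced by LXR, that sends lipoprotein receptors to degradation, and its normalized counts fell from 1158, 1182 and 1327 in Pdcd1f/f to 973, 910 and 892 in Pdcd1f/fLysMcre. The groups were apart, and the log2 fold change was -0.40 (SE 0.08, edgeR adjusted p = 0.0207). Stard4, a cytosolic sterol carrier and SREBP target, had 996, 978 and 1002 normalized counts against 849, 844 and 843. Its groups did not overlap, with means of 991.9 ± 12.8 and 845.3 ± 3.60 (SD, n = 3), and it had a log2 fold change of -0.23 (SE 0.07, adjusted p = 0.0912). Soat1, which esterifies cholesterol for storage in droplets, was the most counted of the 29, with 10587, 10019 and 10087 normalized counts against 9559, 10006 and 9102 (log2 fold change -0.10, adjusted p = 0.362). Its groups did not overlap, but the lowest Pdcd1f/f library and the highest Pdcd1f/fLysMcre library were nearly equal.

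Of the 3 desaturases, Fads1 was lower, Scd2 was higher and Fads2 did not pass by the edgeR test (66.7% called, beside 5.43% of all genes). Fads1, the delta-5 desaturase of polyunsaturated fatty acids and an SREBP1 target, fell by 32.0%, from 3703, 3890 and 3869 normalized counts in Pdcd1f/f to 2487, 2677 and 2620 in Pdcd1f/fLysMcre. Its log2 fold change was -0.56 (SE 0.06), and its edgeR adjusted p of 0.000855 was the smallest of the 29. Scd2, a stearoyl-CoA desaturase that makes monounsaturated fatty acids, rose from 4892, 4707 and 5185 normalized counts to 6058, 6463 and 5946 (log2 fold change 0.32, SE 0.06, edgeR adjusted p = 0.0179). Fads2, the delta-6 desaturase that lies beside Fads1 on chromosome 19, had 45.4, 30.2 and 50.4 normalized counts against 31.5, 20.0 and 32.4. At this depth its log2 fold change of -0.59 had a 95% interval from -1.26 to 0.09, and a difference was not detectable. Levels per length are given as RPKM, counts scaled to the library total adjusted by TMM, per kilobase of exon. Fads2 was the lowest member at 0.270 ± 0.067 RPKM in Pdcd1f/f, and Insig1, Soat1, Ebp and Scd2 were the highest at 22.5, 22.1, 21.8 and 19.1 RPKM.

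GC content bears on these values because the libraries differed in it. Spearman's rho between GC content and a gene's deviation from its genotype mean, over 14473 genes of the same library, ran from -0.58 in Pdcd1f/f replicate 1 and -0.49 in Pdcd1f/fLysMcre replicate 2 to 0.51 and 0.50 in replicate 3 of both genotypes. Among the 29 genes, rho between the log2 fold change and GC content was -0.72, beside -0.36 over all genes tested. The 13 members with a GC content of 50% or more all had negative estimates (median -0.38), and the 16 members under 50% had 8 positive and 8 negative estimates (median -0.01). Hmgcs1 was thus among the members of low GC content, where 7 of the other 15 estimates were positive.

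With offsets for GC content and length, fitted per library, the log2 fold change of Hmgcs1 was 0.13 (SE 0.05, 95% interval 0.02 to 0.24, edgeR adjusted p = 0.0877), and the libraries of the genotypes still did not overlap. Hmgcs1 was short of the threshold in both fits. With GC offsets fitted within each genotype, which keep a GC trend that differs between the genotypes, its log2 fold change was 0.24 (SE 0.05, edgeR adjusted p = 0.00322) and it passed, in a fit that called 15 members (2 higher and 13 lower) and 27.9% of all genes. Of the 29 genes, 1 was higher (Scd2) and 9 were lower (Fads1, Mylip, Dhcr7, Pmvk, Insig1, Stard4, Soat1, Srebf1 and Tm7sf2) with the offsets, while 9.07% of all genes tested were higher and 9.0% lower. The share lower, 9 of 29, was above that background, and the share higher, 1 of 29, was below it. Of the 18 enzymes of cholesterol synthesis, 0 were higher and 3 were lower with the offsets (Pmvk, Dhcr7 and Tm7sf2). That is 16.7% called in either direction, beside 18.1% of all genes. The 5 genes past the threshold without offsets were past it with them, in the same direction. The median log2 fold change was -0.12, and 25 estimates were negative and 4 positive. Idi1, Msmo1, Nsdhl and Sc5d turned from positive to negative estimates, none past the threshold, so that Sqle (0.08), Hsd17b7 (0.06) and Scd2 (0.30) were the other positive members. The libraries of the genotypes did not overlap for Hmgcs1 and Scd2, which were higher, and for 13 members that were lower, beside 17.6% and 16.6% of all genes. Sqle and Ebp overlapped with the offsets and not without them, and Cyp51, Srebf1 and Insig2 the other way round.

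The offsets moved members of low and high GC content in opposite ways. Pmvk went from -0.61 to -0.43 on the log2 scale with a smaller SE of 0.08 (adjusted p = 0.00131), and Scap went from -0.19 to -0.02. Mvd, with a GC content of 59.0%, went from -0.38 to -0.19 (adjusted p = 0.168), Srebf2, with 57.9%, from -0.24 to -0.10 (adjusted p = 0.0977) and Mvk, with 56.3%, from -0.47 to -0.34 (adjusted p = 0.0802), and none of these 3 passed in either fit. At low GC content Cyp51 and Insig2 each went from -0.05 to -0.12, with adjusted p of 0.152 and 0.176. Stard4, with a GC content of 43.9%, went from -0.23 to -0.33 (adjusted p = 0.00206), and Soat1, with 44.1%, from -0.10 to -0.19 (adjusted p = 0.00487). Insig1 had a log2 fold change of -0.32 (adjusted p = 0.000275), Srebf1 of -0.21 (adjusted p = 0.00617) and Tm7sf2 of -0.48 (adjusted p = 0.0295). Fads1, with 52.2% GC, was hardly moved (-0.52, SE 0.05, adjusted p = 7.12e-07), nor were Dhcr7 (-0.36), Mylip (-0.41) and Scd2 (0.30). The 13 members of 50% GC or more all kept negative estimates, with a median of -0.22, and rho with GC content was -0.45 among the members and 0.04 over all genes.

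**Figure D3:**
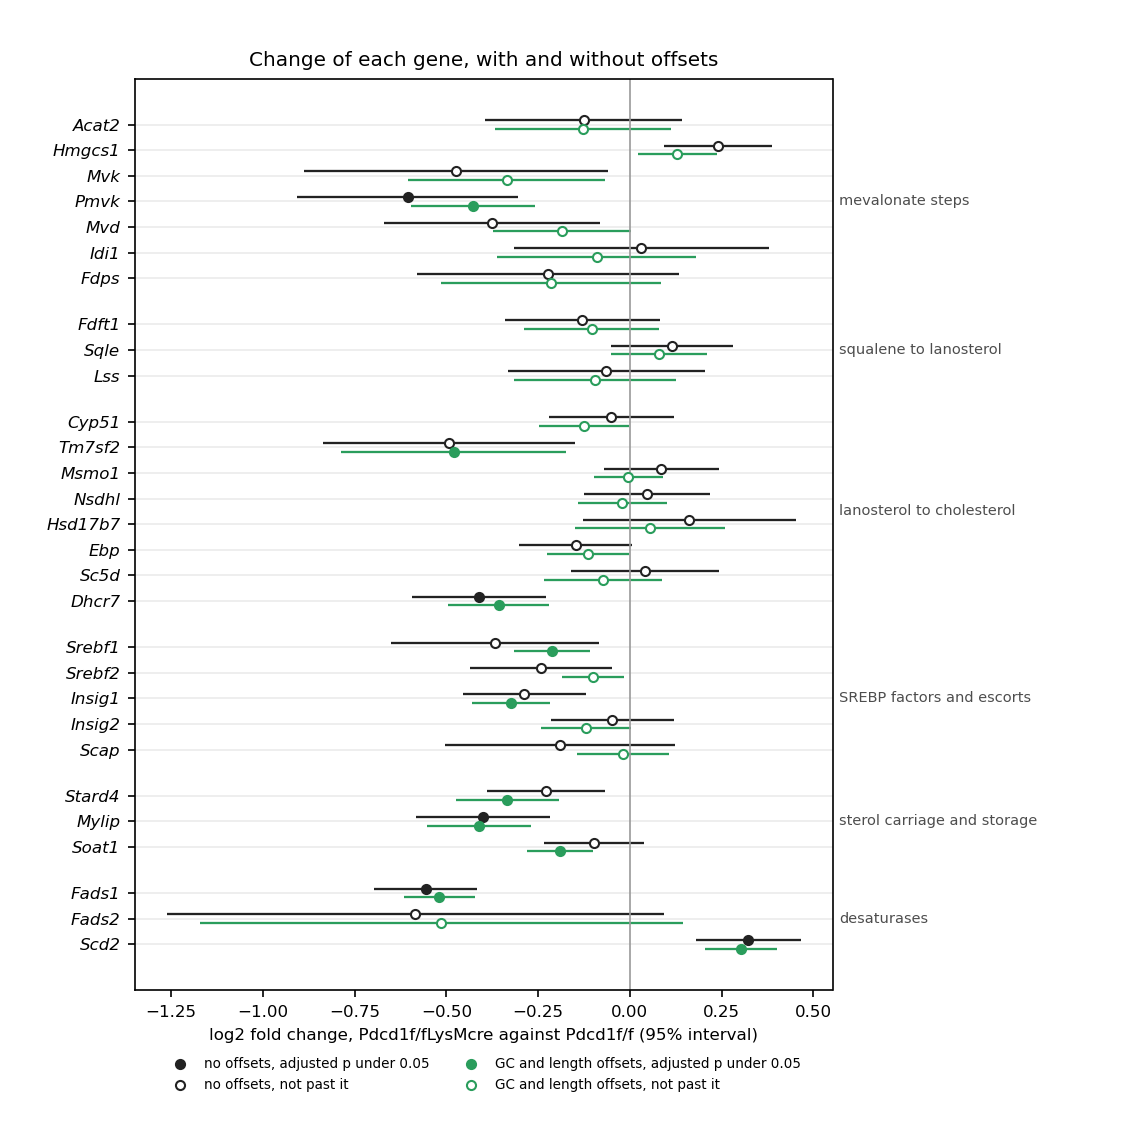
Log2 fold change of Pdcd1f/fLysMcre against Pdcd1f/f for each gene (horizontal axis), with its 95% interval, without offsets (black) and with GC and length offsets (green), where filled points have an adjusted p under 0.05. Hmgcs1 lies to the right of 0 and open in both fits, Scd2 is the only filled point to the right, and the filled points to the left number 4 without and 9 with offsets.

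**Figure D4:**
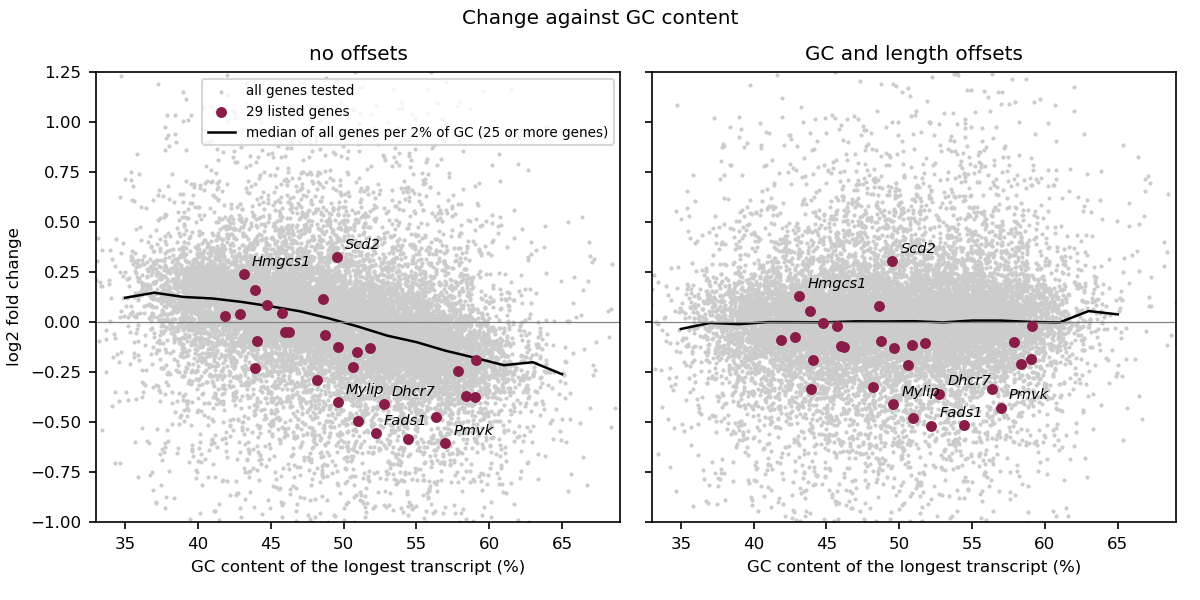
Log2 fold change (vertical axis) against the GC content of the longest transcript (horizontal axis) for all genes tested (grey) and the 29 genes (dark red), without offsets on the left and with GC and length offsets on the right, where the line is the median per 2% of GC content. The median slopes down on the left and is near 0 on the right over most of the range, and the 13 genes at or above 50% GC lie under 0 in both panels (216 and 214 genes outside the vertical range are not drawn).

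The members were also set directly against Hmgcs1 within each library. The log2 ratio of a gene's counts to those of Hmgcs1 needs no size factor, and its mean was lower in Pdcd1f/fLysMcre for 27 of the other 28 genes, Scd2 being the exception, and the same held for 85.5% of all genes tested. The ratio did not overlap between the genotypes and was lower for 21 of the 28, beside 44.1% of all genes tested. These backgrounds are large because Hmgcs1 was itself higher in every Pdcd1f/fLysMcre library, so a gene that does not move has a lower ratio by construction. For Fads1 the log2 ratio was 0.65, 0.81 and 0.76 in Pdcd1f/f and -0.04, -0.06 and -0.06 in Pdcd1f/fLysMcre. For Sqle the ratio was -1.46, -1.30 and -1.36 against -1.39, -1.59 and -1.53, with overlap, and the change of -0.13 was among the smallest. With offsets 20 of the 28 ratios were lower without overlap and that of Scd2 was higher without overlap, beside 32.9% and 3.56% of all genes.

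Of 52 further genes listed, 50 passed the filter, and 0 were higher and 2 were lower by the edgeR test (4.0%, beside 5.43% of all genes), with a median log2 fold change of -0.06. At an unadjusted p under 0.05, 5 were higher and 7 lower (24.0%, beside 24.2%), and by DESeq2 1 was higher and 3 were lower (8.0%, beside 11.0%). With the GC and length offsets 3 of the 50 were higher (Icmt, Acly and Osbp) and 4 lower (Lpin1, Cyp27a1, Hsd3b7 and Abca1), which is 14.0% beside 18.1% of all genes. Of 15 further sterol and SREBP-related genes 0 passed by edgeR or DESeq2, and 1 had an unadjusted p under 0.05. Of 13 genes of the mevalonate branches to prenylation, dolichol and ubiquinone, 0 passed by edgeR, 3 had an unadjusted p under 0.05 and 1 (Pggt1b) was higher by DESeq2. Of 13 fatty acid synthesis genes tested, 2 were higher and 1 was lower at an unadjusted p under 0.05, and 1 passed by edgeR and by DESeq2. This gene, Lpin1, a phosphatidate phosphatase and SREBP target, fell from 763, 751 and 740 normalized counts to 484, 438 and 365 (log2 fold change -0.81, SE 0.11, edgeR adjusted p = 0.00239). Of 9 oxysterol and LXR genes, Cyp27a1, the sterol 27-hydroxylase, fell from 593, 660 and 631 to 504, 441 and 459 (log2 fold change -0.42, SE 0.10, edgeR adjusted p = 0.0312). In this list 8 of the 9 estimates were negative, 1 gene was higher and 4 were lower at an unadjusted p under 0.05 (55.6%, beside 24.2% of all genes), Cyp27a1 and Hsd3b7 were lower by DESeq2 (22.2%, beside 11.0%), and 1 was higher and 3 were lower with the offsets (44.4%, beside 18.1%). Scd1, another stearoyl-CoA desaturase, had 178, 170 and 131 normalized counts against 167, 216 and 200 and a log2 fold change of 0.28 (SE 0.16, adjusted p = 0.307), and Fads3 had a log2 fold change of -0.28 (adjusted p = 0.22).

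When each library was left out in turn without offsets, Fads1 passed the threshold in all 6 fits. Scd2 passed in 3 of 6, Pmvk and Dhcr7 in 2 of 6 and Mylip in 1 of 6, while their log2 fold changes stayed within 0.29 to 0.36 for Scd2, -0.74 to -0.53 for Pmvk, -0.45 to -0.38 for Dhcr7 and -0.44 to -0.34 for Mylip. Calls over all genes changed as well, from 787 to between 222 and 3128, in fits with fewer samples. Without Pdcd1f/f replicate 1, 13 members passed, Hmgcs1 among them (log2 fold change 0.26, edgeR adjusted p = 0.0231), beside 21.6% of all genes. Only Fads1 passed without Pdcd1f/f replicate 2 (beside 1.62% of all genes) or without Pdcd1f/fLysMcre replicate 1 (beside 1.53%). Fads1 and Scd2 passed without Pdcd1f/f replicate 3 (beside 2.46% of all genes), and Fads1 and Insig1 without Pdcd1f/fLysMcre replicate 2 (beside 2.48%). Fads1, Scd2, Dhcr7 and Pmvk passed without Pdcd1f/fLysMcre replicate 3 (beside 3.73%). With the offsets, each of the 5 passed whichever library was left out (6 fits), as did Insig1, Stard4, Soat1 and Srebf1, Tm7sf2 passed in 3, and Hmgcs1 passed in none (adjusted p of 0.0843 to 0.317). These fits with the offsets called 10.5% to 22.9% of all genes.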

How the data were processed

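TAMs were sorted by the authors as live CD45+CD11b+F4/80+Ly6G− cells, and stranded polyA libraries were sequenced as paired-end reads. Per the labels and the study's methods, the authors ran FastQC (0.11.5), Cutadapt (2.5), STAR (2.7.3a) on GRCm38 and featureCounts (Subread 1.6.2) on Ensembl genes. They deposited raw counts for 55421 genes and a signal table of 16552 genes, in which counts are divided by a DESeq2 (1.24.0) size factor per library (0.895 to 1.08). The strand setting of the counting and the handling of multi-mapped reads are not given in the sources used here.

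The normalized counts in the text are the authors' signal values. CPM, RPKM (exon lengths from GENCODE M21) and all tests were computed here from the deposited counts. The genotypes were compared with edgeR 4.0.16 (R 4.3.3): 10 or more counts in at least 3 libraries, TMM, glmQLFit with robust estimation, two-sided glmQLFTest, Benjamini-Hochberg adjustment over 14488 genes and a threshold of 0.05. GC and length offsets came from a loess fit per library (span 0.5) on the longest transcript, known for 14473 genes. The biological coefficient of variation was 8.92% without and 5.30% with the offsets. DESeq2 (1.42.0) and limma (3.58.1) were alternatives. An exact permutation test of 3 against 3 libraries cannot give a p under 0.1 and was not used. The scripts were tested on simulated counts with known changes.

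All 29 members are named. The members, gene lists and tests were chosen with earlier results of these data known.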

Additional observations from a re-analysis of the deposited data

How the results depend on the processing

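The median log2 fold change of the 29 genes was negative under every alternative, from -0.11 without the 2 libraries of opposite GC trend (Pdcd1f/f replicate 1 and Pdcd1f/fLysMcre replicate 2) to -0.18 without Pdcd1f/fLysMcre replicate 1. Of 638 values of single members under the alternatives set with the design, 534 had the same direction and side of the threshold, 63 passed it in addition, 24 no longer passed and 17 changed sign. Counts of calls moved more. Among all genes 787 passed, and among the 29 members 5. Without the low count filter these were 1951 (7.32% of 26637 genes tested) and 11. The next fits tested 14488 genes. DESeq2 gave 1600 (11.0%) and 9, and Storey q-values 1957 (13.5%) and 12. GC and length offsets gave 2618 (18.1%) and 10, and GC offsets alone 2458 (17.0%) and 10. GC offsets fitted within genotype gave 4046 (27.9%) and 15. Without the 2 libraries of opposite GC trend the calls were 3752 (25.9%) and 14. A threshold of 0.01 gave 283 (1.95%) and 1, and a fold change above 1.2 gave 193 (1.33%) and 1. Leaving out each library in turn gave 222 (without Pdcd1f/fLysMcre replicate 1) to 3128 (without Pdcd1f/f replicate 1) calls among all genes, 1 to 13 among the members and a median of -0.18 to -0.13. With GC and length offsets and each library left out, chosen after seeing the data, these were 1528 to 3316, 9 to 11 and -0.17 to -0.13. The cause of these shifts was not tested. The fits with a library left out hold fewer samples. Calls among all genes rose without Pdcd1f/f replicate 1 and fell without any other library, with and without the offsets.

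Hmgcs1 kept a positive estimate throughout, and passed the threshold with DESeq2 (0.24, adjusted p = 0.0234), Storey q-values (0.24, q = 0.0159), GC offsets within genotype (0.24, adjusted p = 0.00322), without the 2 libraries of opposite GC trend (0.24, adjusted p = 0.00798) and without Pdcd1f/f replicate 1 (0.26). Leaving out each library gave 0.21 to 0.28, and 0.086 to 0.16 with the offsets. The 17 sign changes were all of members not past the threshold. Idi1 was -0.090 with GC and length offsets, -0.093 with the offsets and the replicate block, -0.081 with GC offsets alone and -0.028 without the 2 libraries of opposite GC trend, and left-out libraries took it from -0.12 to 0.12 (-0.18 to -0.042 with offsets). Msmo1 was -0.0039 with the offsets and -0.0038 with the block added (-0.021 to 0.011 with offsets and a library left out, 0.044 to 0.13 without offsets). Nsdhl was -0.020 with GC and length offsets, -0.020 with the block added and -0.023 with GC offsets alone (-0.033 to -0.0057 with a library left out, 0.0038 to 0.075 without offsets), and Sc5d was -0.073, -0.073 and -0.059 (-0.11 to -0.015, and -0.024 to 0.080 without offsets). Left-out libraries took Lss from -0.18 to 0.020 (-0.19 with offsets) and Cyp51 from -0.094 to 0.0028 (-0.15 with offsets), and with offsets Hsd17b7 from -0.056 to 0.12 (0.011 to 0.24 without) and Scap from -0.065 to 0.025 (-0.34 to -0.073 without).

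No source says that a replicate number marks a shared mouse, litter or day, and the correlation of same-numbered libraries' deviations was -0.01, -0.09 and 0.22 for numbers 1, 2 and 3, so not every library correlated best with its own number. With the replicate number as a block, 1016 genes and 7 members (1 higher and 6 lower) passed, with GC and length offsets and the block 2631 and 10, and Hmgcs1 was 0.24 (adjusted p = 0.0781). Fads2, with 20.0 to 50.4 normalized counts, had the lowest counts and the largest SE (0.31) of the 29 members, and the effect of depth was not tested.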
